A study of Mus musculus with 67 samples.

Results

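pMN NPs, the neural progenitors that give rise to motor neurons, were sorted from cultures exposed to either 100 nM or 500 nM SAG, and their chromatin accessibility was compared between these concentrations. All 15 pMN samples of the 67 in the series at these concentrations were used, 8 at 100 nM and 7 at 500 nM, chosen by the cell type and SAG concentration in their labels. At 100 nM there were 3 replicates on day 4, 3 on day 5 and 2 on day 6. At 500 nM there were 3 on day 4, 2 on day 5 and 2 on day 6. Every sample came from HM1, a single line of mouse embryonic stem cells, differentiated on Matrigel in N2B27 medium with bFGF and LGK, then with bFGF, CHIR99021, SB-431542 and DMH1, and from day 3 in RA together with SAG. SAG concentration was therefore the labelled difference between the groups. The cells were fixed, and sorted with antibodies against transcription factors in the CaTS-ATAC method. The pMN gate took cells positive for OLIG2 and left out those also positive for NKX2.2. A change in the number of cells with both proteins could therefore not be seen. NP types at one concentration were sorted from the same dish.

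SAG is a small molecule that activates Smoothened, the membrane protein through which Sonic hedgehog (Shh) signals. Without signal, Patched1, the product of Ptch1, holds Smoothened inactive, and GLI factors are processed to repressors. With signal, full-length GLI proteins activate transcription, and Ptch1 itself is among their targets. In the ventral neural tube, progenitor domains form in order of increasing Shh exposure as p0, p1, p2, pMN and p3, with the floor plate closest to the source. OLIG2 marks pMN, NKX2.2 and NKX2.9 mark p3, and FOXA2 marks floor plate and is made in early ventral progenitors.

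The deposited table gives a value for each of 111638 elements, the intervals of open chromatin that the authors called as consensus peaks. The values are read counts on a variance-stabilized (VST) scale, close to log2 for well covered elements. Reads in elements were between 14866189 and 26704636 per pMN sample at 100 nM and between 16040652 and 22167620 at 500 nM. Below, levels are normalized counts, that is, reads divided by the size factor of the sample, and a dose difference is the 500 nM value minus the 100 nM value in VST units, from a linear model with day and replicate number as covariates. An element is named by the gene with the nearest transcription start site (TSS) and its distance from that TSS in bp, with negative distances upstream. Nearness does not show which gene an element acts on. A total of 31990 elements with a mean above 100 normalized counts were tested.

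The labelled cell type was checked at marker genes. The element at the TSS of Olig2, the pMN determinant, had between 1204 and 2361 normalized counts at 100 nM and between 1325 and 2302 at 500 nM, against medians of 925 in p3 and 806 in p2. The element at the TSS of Sox2, a factor of neural progenitors, had between 1816 and 2062 normalized counts at 100 nM and between 1685 and 2001 at 500 nM. At the TSS of T, which marks the earlier neuromesodermal progenitors (NMPs), the range was 88.3 to 259 at 100 nM and 104 to 262 at 500 nM, against a median of 1188 in NMPs. The Olig2 element was thus higher in both pMN groups than in the medians of the neighbouring NPs, and the T element was lower than in NMPs. These are accessibility values, and the proteins were not measured here.

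The sequences below are shown because they come from elements that were more accessible at 500 nM and hold the letters TGGGTGGTC, a core of the GLI binding motif, on one of the strands. Each window has 120 bases of the GRCm38 (mm10) plus strand, and capitals mark the GLI letters or their reverse complement, GACCACCCA. The first 4 lie in elements that passed an adjusted p of 0.05. The other two were chosen after their values were seen, since they lie at the loci of Nkx2-9 and Foxa2.
Nkx2-9 -8166, chr12:56621326-56621445: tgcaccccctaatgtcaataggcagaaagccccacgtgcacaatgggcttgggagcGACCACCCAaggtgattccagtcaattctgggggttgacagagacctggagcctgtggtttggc
1700024I08Rik +14345, chr13:63719681-63719800: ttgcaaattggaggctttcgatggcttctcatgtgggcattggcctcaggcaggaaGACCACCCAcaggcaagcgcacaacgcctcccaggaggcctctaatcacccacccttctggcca
Gm815 +44656, chr19:26930658-26930777: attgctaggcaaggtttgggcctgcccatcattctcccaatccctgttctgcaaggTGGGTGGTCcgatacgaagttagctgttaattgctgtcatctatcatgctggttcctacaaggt
Cep131 +16395, chr11:120071158-120071277: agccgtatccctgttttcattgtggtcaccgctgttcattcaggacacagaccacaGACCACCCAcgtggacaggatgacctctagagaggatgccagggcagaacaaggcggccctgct
Nkx2-9 -344, chr12:56614585-56614704: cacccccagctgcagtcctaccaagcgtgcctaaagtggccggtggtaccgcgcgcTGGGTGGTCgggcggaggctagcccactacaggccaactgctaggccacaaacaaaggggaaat
Foxa2 +25185, chr2:148022186-148022305: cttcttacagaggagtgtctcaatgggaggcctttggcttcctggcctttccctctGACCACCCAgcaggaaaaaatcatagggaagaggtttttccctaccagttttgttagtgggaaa

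Accessibility of pMN differed little between 100 and 500 nM SAG. With the study's criteria, a fold change above 2 and an adjusted p under 0.01, 0 of 31990 elements (0%) were called (limma, two-sided, Benjamini-Hochberg adjustment), and 2694 had an unadjusted p under 0.05. The 95% confidence interval of the dose difference lay within 1 VST unit either way for 31988 elements, 99.99%, and within 0.5 VST units for 31258, 97.7%. The median size of the difference was 0.06 VST units, with a median standard error (SE) of 0.08. With an adjusted p under 0.05 and no minimum fold change, 12 elements (0.0375%) were called, 9 with more accessibility at 500 nM (0.0281%) and 3 with less (0.00938%). These 12 changed in the same direction in 7 of 7 pairs of samples matched for day and replicate number. They were called on these same samples, so this agreement largely follows from the choice. The groups overlapped for each of them, and levels also differed between days and replicate numbers. No element had all 7 samples at 500 nM above, or all below, the 8 at 100 nM (0% in each direction).

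The count of called elements depended on how replicate numbers entered the model. A number marked samples that were alike: on each day, a 500 nM sample was closer to the 100 nM sample with its own number than to any other. For same-numbered samples the squared Pearson correlation across tested elements was between 0.975 and 0.986 on day 4, 0.971 and 0.979 on day 5, and 0.975 and 0.980 on day 6. Between samples of different number at different doses it was at most 0.957 on day 4, 0.953 on day 5 and 0.914 on day 6. Within a dose it was at most 0.960 on day 4, 0.971 on day 5 and 0.913 on day 6. On day 5 a pair of different number within a dose was thus about as alike as the lower same-numbered pair. Without the replicate block 0 elements were called at an adjusted p under 0.05, and 943 had an unadjusted p under 0.05. With each combination of day and number as a block of its own, 174 elements were higher (0.544%) and 276 lower (0.863%). Both fits, on the same samples, gave the 12 elements the same sign. Over the tested elements, day accounted for a median of 53.6% of the variance in VST values, replicate number for 15.9% and dose for 0.840%. According to the study's descriptions, replicates were independent differentiations. In 7 of the 15 fits that left out 1 sample, 0 or 1 element was called, and the closing section gives these counts.

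**Figure D1:**
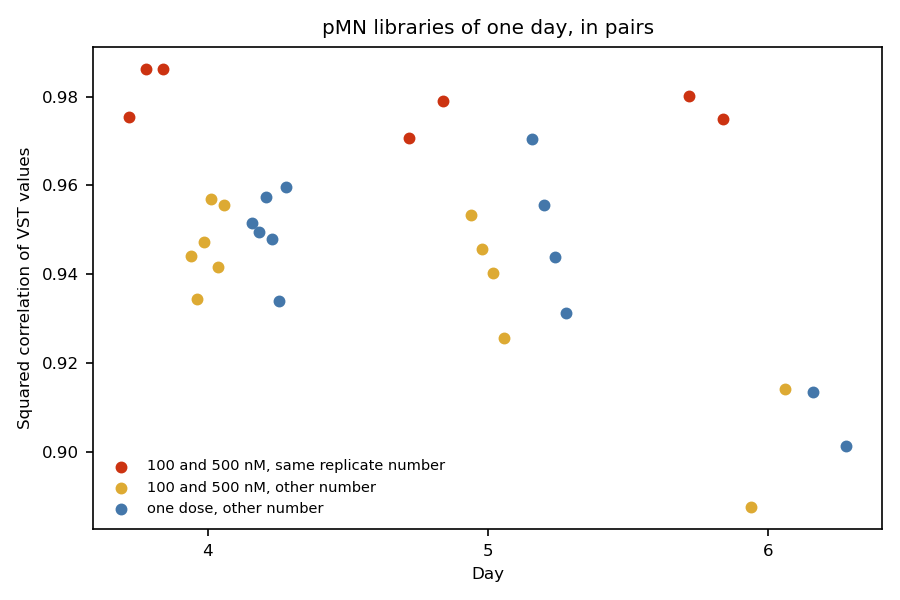
Squared Pearson correlation across the 31990 tested elements (vertical axis) for each pair of pMN samples of a day (horizontal axis, day of differentiation), by kind of pair. Pairs of the same replicate number at different doses lie at or above 0.971, higher than pairs of different number between doses, which lie at or below 0.957.

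Among the 9 elements that were higher at 500 nM, 1 lay at a gene of the p3 and floor plate list, Nkx2-9, which encodes a homeodomain factor of the most ventral progenitors. It is an intergenic element of chr12:56621016-56621884, 8166 bp upstream of the TSS. On day 4 its normalized counts in replicates 1, 2 and 3 were 509, 370 and 837 at 100 nM and 807, 588 and 1015 at 500 nM. On day 5, replicates 1, 2 and 3 had 370, 397 and 622 at 100 nM and replicates 2 and 3 had 742 and 873 at 500 nM, and on day 6 they had 350 and 496 at 100 nM and 484 and 615 at 500 nM. Each 500 nM sample was above its partner of the same number, while replicate 3 was the highest at 100 nM on each day. The dose difference was 0.56 ± 0.09 VST units (SE, n = 8 and 7 samples over 3 days), with a 95% interval of 0.37 to 0.75 and an adjusted p of 0.0342. The median level in p3 was 476, between the pMN medians of 447 and 742.

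Other elements at Nkx2-9 were higher too, though none of them passed the threshold. All 5 tested elements of the locus had a positive dose difference, against 37.6% of all elements. The element at the TSS, chr12:56611650-56615607, had a median of 1703 normalized counts at 100 nM and 2064 at 500 nM, and a dose difference of 0.23 ± 0.04 VST units with an adjusted p of 0.0500 that lay just above the threshold. Among the 80 elements at the TSS of listed genes, this was the largest positive difference, and 0 passed the adjusted threshold. At 20077 bp upstream the difference was 0.54 ± 0.11 VST units with an adjusted p of 0.0865.

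Elements at Foxa2 and Nkx2-2 were looked at after their values were seen. At Foxa2, which encodes a forkhead factor of the floor plate, 9 of 11 tested elements had a positive dose difference and 5 of these had an unadjusted p under 0.05, but 0 passed the adjusted threshold. Over all elements 37.6% had a positive difference and 2.89% were higher at this p. The largest, 9968 bp downstream of the TSS, ranged from 77.1 to 900 normalized counts at 100 nM, with a median of 266, and from 95.2 to 934 at 500 nM, with a median of 501, and its difference was 0.45 ± 0.13 VST units with an adjusted p of 0.240. No tested element was annotated to Nkx2-2. An element annotated to 6430503K07Rik, chr2:147183999-147190942, lies within the RefSeq interval of Nkx2-2, which runs from 147176485 to 147195434, and holds the GLI letters. Its medians were 1900 normalized counts at 100 nM and 2130 at 500 nM, with overlapping ranges. It was higher at 500 nM in 7 of 7 pairs, with a difference of 0.23 ± 0.05 VST units and an adjusted p of 0.117. The other tested element annotated to 6430503K07Rik, chr2:147193285-147195681, holds the TSS of Nkx2-2. Its difference was 0.13 ± 0.07 VST units with an adjusted p of 0.661, and it was higher in 5 of 7 pairs.

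A pair of called elements lay in introns of 1700024I08Rik, 14345 and 4240 bp from its TSS. They also lay 146 and 157 kb upstream of the TSS of Ptch1, the gene of the Shh receptor. The distance to Ptch1 was taken after the calls were seen, and a link to that gene was not tested. The first, chr13:63719030-63720877, had between 326 and 927 normalized counts at 100 nM, with a median of 437, and between 533 and 1105 at 500 nM, with a median of 623. Its dose difference was 0.43 ± 0.06 VST units with an adjusted p of 0.0342. The second, chr13:63729502-63730614, had between 291 and 1122 at 100 nM, with a median of 430, and between 430 and 1312 at 500 nM, with a median of 792. Its difference was 0.53 ± 0.09 VST units with an adjusted p of 0.0373. Both sat higher at 500 nM in every matched pair and overlapped between groups. Elements annotated to Ptch1 itself gave a mixed picture, with 0 of 12 called, 2 higher and 1 lower at an unadjusted p under 0.05, and the largest difference was 0.29 VST units, 58841 bp downstream of the TSS. The TSS of Gli1, a GLI factor that is itself a target of the pathway, had a difference of 0.003 VST units.

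The remaining higher elements lay near genes of other roles. Tns3, whose product is a tensin of focal adhesions, had an intergenic element at chr11:8722747-8723828 with the smallest adjusted p of all, 0.0226. Its normalized counts had a minimum, median and maximum of 824, 912 and 1633 at 100 nM, and of 1065, 1266 and 1942 at 500 nM. The dose difference was 0.38 ± 0.05 VST units, and the log2 ratios of the 7 matched pairs ranged from 0.14 to 0.60. An intergenic element 64134 bp upstream of Cobl, which encodes an actin nucleator, had the largest dose difference, 0.76 ± 0.13 VST units, with an adjusted p of 0.0342. It ranged from 18.8 to 916 normalized counts at 100 nM, with a median of 146, and from 43.1 to 1210 at 500 nM, with a median of 364. Levels at this element were highest on day 4 at both doses, and the dose groups overlapped widely although each pair moved up.

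An intergenic element 44656 bp downstream of the TSS of Gm815 had between 309 and 1105 normalized counts at 100 nM, with a median of 503, and between 613 and 1806 at 500 nM, with a median of 931, a difference of 0.61 ± 0.10 VST units with an adjusted p of 0.0347. In intron 15 of Cep131, which encodes a protein of centrosomes and cilia, the range was 255 to 511 with a median of 315 at 100 nM, and 364 to 579 with a median of 503 at 500 nM, a difference of 0.40 ± 0.07 VST units. The groups overlapped at both elements. The other two higher elements were of low level: 9441 bp from the TSS of Car4, a membrane carbonic anhydrase, medians were 92.6 at 100 nM and 158 at 500 nM, and in intron 1 of Zdhhc14, a palmitoyltransferase, they were 117 and 164. Their dose differences were 0.56 ± 0.09 and 0.49 ± 0.08 VST units, each with an adjusted p of 0.0342, as for Cep131.

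The 3 lower elements lay in intron 1 of Adgrv1, which encodes an adhesion G protein-coupled receptor, 1922 bp upstream of Tmem168 and 194889 bp from the TSS of 4930555K05Rik. At Adgrv1, chr13:81596264-81598078, the range was 235 to 1862 normalized counts at 100 nM, with a median of 994, and 163 to 1625 at 500 nM, with a median of 629. The dose difference was -0.33 ± 0.05 VST units with an adjusted p of 0.0342. At Tmem168, chr6:13609773-13610267, the range was 223 to 482 with a median of 307 at 100 nM, and 165 to 336 with a median of 236 at 500 nM, a difference of -0.41 ± 0.07 VST units with an adjusted p of 0.0342. At 4930555K05Rik the medians were 860 and 538, with a difference of -0.37 ± 0.06 VST units and an adjusted p of 0.0448. All 3 fell in each of the 7 matched pairs. They were also among elements higher in p0-1 NPs at 10 nM SAG on day 6 than on day 4, a list that holds 4970 of the 31990 elements tested in pMN. That list took a fold change above 2 and an adjusted p under 0.01 (limma). Of its 4970 elements tested in pMN, 856 were lower at an unadjusted p under 0.05, 17.2% against 5.53% of all elements. Of 1832 elements lower on day 6 by these criteria, 175 were higher, 9.55% against 2.89%. A link to time was not tested.

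**Figure D2:**
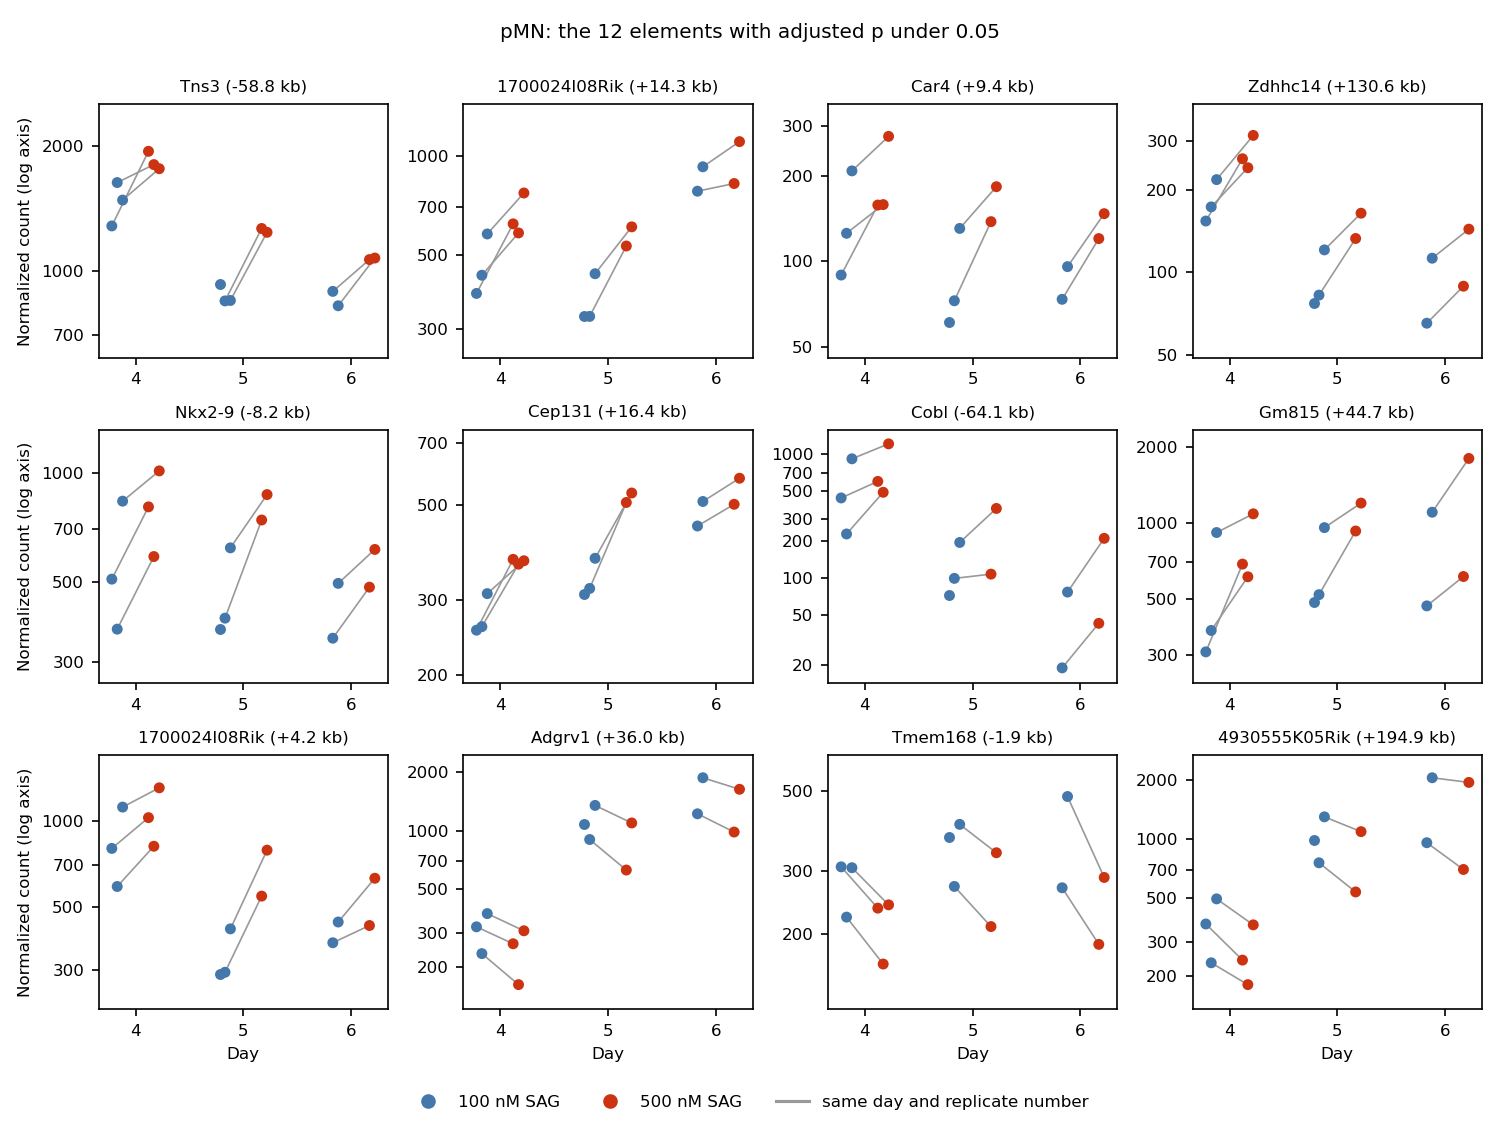
Normalized counts (vertical axis, log scale) by day of differentiation (horizontal axis) for the 12 elements called at an adjusted p under 0.05, 1 panel each, with a point per pMN sample at 100 or 500 nM SAG and lines joining samples of the same day and replicate number. In the 9 higher elements every line goes up from 100 to 500 nM and in the 3 lower elements every line goes down, while the ranges of the doses overlap.

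The direction of these changes was set beside the difference between p3 and pMN, since p3 NPs form at higher Shh exposure. Of the 9 higher elements, 3 were more accessible in p3 than in pMN and 6 less accessible at an adjusted p under 0.05 (limma, p3 and pMN samples at both doses). Over all elements tested, 38.5% were higher in p3 and 30.3% lower by this criterion, so a difference between the cell types is common. The former were those of Cobl, Car4 and 1700024I08Rik +4240. The latter were those of Tns3, 1700024I08Rik +14345, Gm815, Cep131, Nkx2-9 and Zdhhc14, with p3 minus pMN of -1.47 VST units at Tns3 and -1.08 at 1700024I08Rik +14345. Of the 3 lower elements, 1 was higher in p3 and 2 were lower. In sorted populations, a change in every cell and a change in the share of cells that resemble a neighbouring type cannot be told apart.

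Lists of genes that were drawn up for this tissue, by nearest gene, showed few called elements. The p3 and floor plate list had 1 element called of 82 tested, Nkx2-9 -8166, and the 9 other lists had 0 called, against 0.0375% of all elements. Before adjustment, with p under 0.05, 11 of the 82 in the p3 and floor plate list were higher at 500 nM, 13.4% against 2.89% of all elements, and 2 were lower, 2.44% against 5.53%. Of these 11, 5 lay at Foxa2 and 4 at Nkx2-9, so the share comes mainly from neighbouring elements of these loci. The rest were Nkx6-1 +341398 and +250113, which the pMN list also holds. Of the 57 elements of the p2, p1 and p0 list, 0 were higher and 17 lower, 29.8%. Of the 73 elements of the neural progenitor and Notch list, 0 were higher and 21 lower, 28.8%. In the pMN list, 2 of 56 were higher and 6 lower, and in the Hedgehog pathway list 2 of 64 were higher and 6 lower. None of the 21 elements of the NMP and axial list reached this p in either direction. Among 50 elements of the dorsal list 0 were higher and 8 lower, and among 61 of the neuron list 1 was higher and 3 were lower. The maturation list had 2 of 35 in each direction and the list of other lineages 1 of 22. No test was run on the lists.

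Single elements of these lists, chosen after their values were seen, were mostly small in effect. An element in an intron of Dbx2, which encodes a homeodomain factor of more dorsal progenitors, had a dose difference of -0.39 ± 0.09 VST units, with an adjusted p of 0.132. Irx1, of the Iroquois factors of the intermediate domains, had -0.25 ± 0.06 at an element 899 bp from its TSS, with an adjusted p of 0.150. At Hes5, an effector of Notch signalling, the element 7788 bp upstream had -0.21 ± 0.06 with an adjusted p of 0.256, and at Sox2 the element 15750 bp downstream had -0.19 ± 0.04 with an adjusted p of 0.112. None of these passed the threshold. At Olig2 the TSS element had a difference of -0.003 VST units, while elements 38300 and 51954 bp upstream had -0.39 ± 0.09 and -0.25 ± 0.07, with adjusted p of 0.139 and 0.207.

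**Figure D3:**
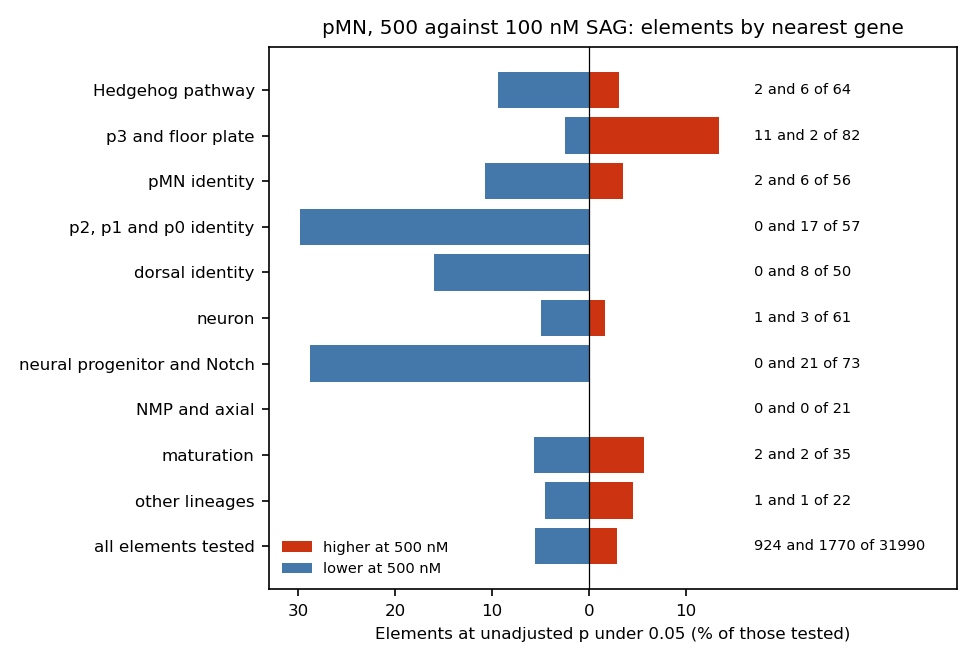
Share of tested elements, in percent (horizontal axis), that were higher or lower at 500 nM at an unadjusted p under 0.05, for each gene list (vertical axis) and for all 31990 elements. The p3 and floor plate list has 13.4% higher, and the p2, p1 and p0 list and the neural progenitor and Notch list have 29.8% and 28.8% lower, beside 2.89% and 5.53% of all elements.

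The response to SAG was then compared with that of p2 NPs, the next domain dorsally, which were sorted at 10 and 100 nM. With a fold change above 2 and an adjusted p under 0.01, 16 elements (0.0503%) were higher in p2 at 100 than at 10 nM (9 samples at each), with no pMN sample in that fit. In pMN all 16 had a positive dose difference between 100 and 500 nM. The median was 0.43 VST units, against -0.02 over all elements, or 0.10 over 1283 elements when the list was taken at an adjusted p under 0.05 alone. Of the 16, 15 were higher at an unadjusted p under 0.05, a level that 2.89% of the tested set reached. At an adjusted p under 0.05, 6 of the 16 were called. The mean of the 16 was higher at 500 nM in 7 of 7 matched pairs, by 0.22 to 0.57 VST units. It held on each day, with medians of 0.37 on day 4, 0.54 on day 5 and 0.28 on day 6. p2 and pMN at 100 nM were sorted from the same dishes, so samples of the same number may share a deviation. In p0-1 NPs, 7 elements were higher at 10 than at 0 nM by the same criteria. Their median in pMN was 0.003 VST units, with 4 of 7 positive, and -0.03 to 0.03 when 1 sample was left out. Of 14 tested elements lower in p0-1 at 10 nM, 7 were positive in pMN. At an adjusted p under 0.05 alone, 37 of 342 elements higher in p0-1 were higher in pMN before adjustment, 10.8%.

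Besides the elements at Tns3, Cobl, Gm815, Nkx2-9 and 1700024I08Rik, the 16 held an element in an intron of Nf2, whose product is the tumour suppressor merlin, that ranged from 155 to 359 normalized counts at 100 nM, with a median of 290, and from 274 to 450 at 500 nM, with a median of 347. Its dose difference in pMN was 0.42 ± 0.10 VST units, and p3 lay lower than pMN by 1.18. Another was the element of Foxa2 at +9968, and one more element of 1700024I08Rik, at +8510, had a difference of 0.26 ± 0.09 VST units. The smallest difference was 0.15 ± 0.09 VST units in an intron of Wwc1, which encodes the scaffold protein KIBRA, with an unadjusted p of 0.108. With an adjusted p under 0.05 as the only criterion, 7 of the 9 higher elements were tested in p2 and 7 were higher there at 100 nM, against 4.07% of all elements, and all 3 lower ones were lower there, against 11.4%. In p2, 95 elements were lower at 100 nM by more than 2-fold (0.298%, and with the 16 higher ones 0.349%). The 53 of them tested in pMN had a median of -0.08 VST units, with -0.17 on day 4, -0.14 on day 5 and 0.14 on day 6. It ranged from -0.13, without day 6 replicate 3 at 500 nM, to -0.03, without day 5 replicate 2 at 500 nM, when 1 sample was left out. It was also between -0.04 and -0.03 without day 4 replicate 1 or day 5 replicate 2 at 100 nM, or day 4 replicate 3 at 500 nM.

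**Figure D4:**
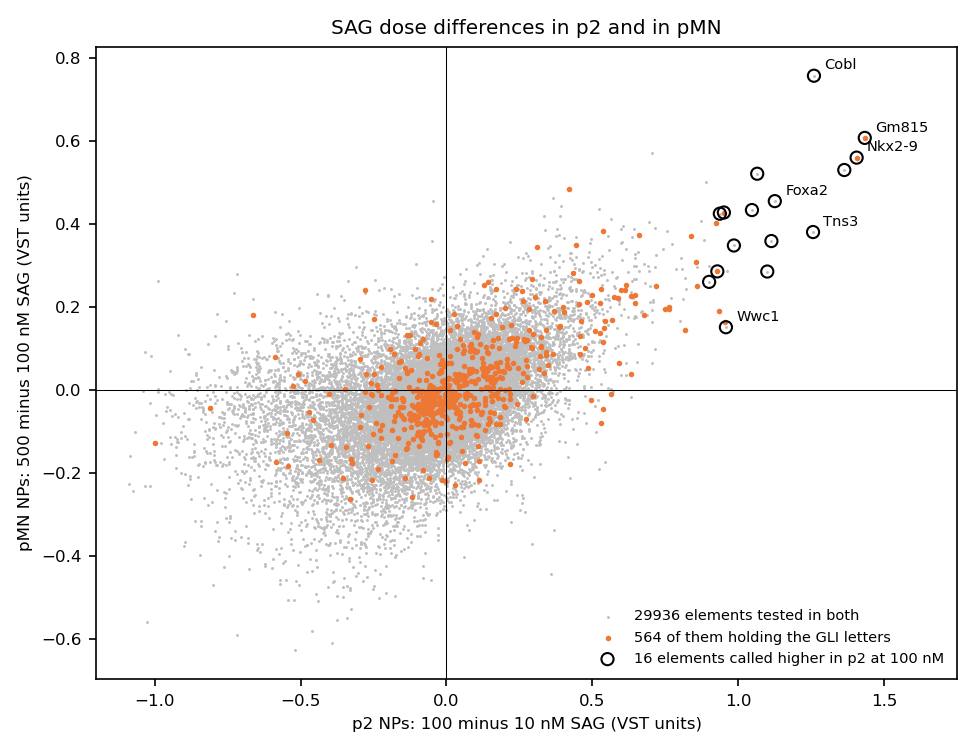
Difference in VST units between 100 and 10 nM SAG in p2 (horizontal axis) and between 500 and 100 nM in pMN (vertical axis) for 29936 elements tested in both, with the 564 elements that hold the GLI letters in orange and the 16 that passed a 2-fold change in p2 circled. All 16 circled elements lie above 0 on the vertical axis, with a median of 0.43.

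Elements that distinguish p3 from p2 were then followed between doses in pMN. In the p3 and p2 samples at 100 nM, which include no pMN, 1642 elements were higher in p3 by more than 2-fold (5.25%) and 2579 lower (8.25%). The 702 of the former that were tested in pMN had a median dose difference of 0.09 VST units, and 133, 18.9%, were higher at an unadjusted p under 0.05 and 4 lower. The median was 0.04 without day 6 replicate 2 at 100 nM or day 6 replicate 3 at 500 nM, and -0.03 over 8477 elements when the list was taken at an adjusted p under 0.05 alone. The median of 0.09 is 8.06% of the 1.13 VST units by which they were higher in p3 than in pMN. The 2504 of the latter had a median of -0.11, or -0.04 over the list taken at an adjusted p alone, and 19 were higher and 616 lower, 24.6% against 5.53% of all elements. At an adjusted p under 0.05, 4 of the 702 were called higher and 1 of the 2504 lower, beside 0.0281% and 0.00938% of all elements. The median of the 702 was 0.02 on day 4, 0.10 on day 5 and 0.22 on day 6, and that of the 2504 was -0.02, -0.13 and -0.21. The mean of the 702 was higher at 500 nM in 5 of 7 matched pairs and that of the 2504 lower in 6 of 7. Shifts in these directions were also seen within p3. There the 702 had a median dose difference of 0.09 VST units between the same doses, with 525 positive. For the 2186 elements of the lower list tested with p3 it was -0.06, against -0.03 over all elements. The p3 samples at 100 nM also served to choose these lists.

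The letters of the GLI motif, on either strand, occurred in 635 of the 31990 tested elements, 1.99%, and in 4 of the 9 elements higher at 500 nM, 44.4%, but in 0 of the 3 lower. The homeodomain and SOX letters given below were also in 4 of these 9. Among the 635, 84 were higher at an unadjusted p under 0.05, 13.2% beside 2.89% over the whole table, and 21 were lower, 3.31% against 5.53%. With a block for each day and number, 34 of the 174 higher elements held the letters, 19.5%, and 1 of the 276 lower, 0.362%. The median dose difference of the 635 was 0.01 VST units, so most elements with the letters differed little. In p3 between the same doses, 3.36% of those tested were higher at an unadjusted p under 0.05, against 3.11% of all elements tested in both cell types. A match of letters does not show that GLI proteins bound there.

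Other letters searched on both strands were commoner. They were TGTTTAC of forkhead factors, in 16.1% of tested elements, TAATTA of homeodomain factors, in 23.5%, CAGATG and CAGCTG of basic helix-loop-helix factors, in 64.1% and 60.6%, and ACAATGG of SOX factors, in 21.9%. The share of elements higher at an unadjusted p under 0.05 was 4.44% with the forkhead letters, 3.31% with the homeodomain letters, 3.02% and 3.11% with the helix-loop-helix letters and 3.31% with the SOX letters. The lower shares were between 5.24% for CAGCTG and 7.21% for ACAATGG. Among the 174 elements higher with a block for each day and number, the forkhead letters were in 31.0%, the homeodomain letters in 33.3%, CAGATG in 70.1%, CAGCTG in 66.7% and the SOX letters in 24.7%. Among the 276 lower ones the shares were 19.6%, 33.0%, 72.8%, 58.0% and 33.7%. The elements can hold several of these letters, and no test was run.

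**Figure D5:**
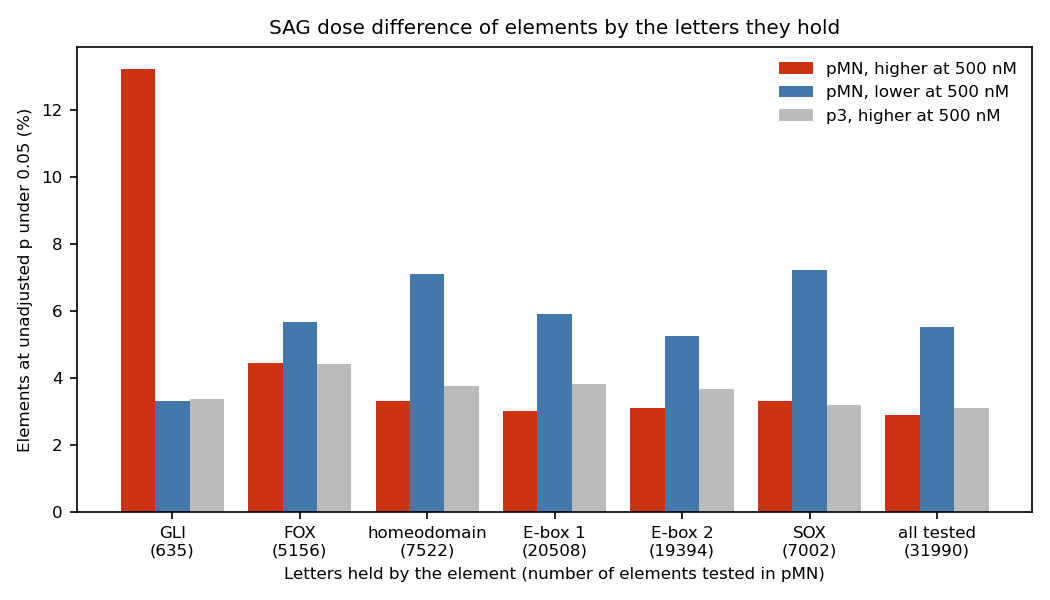
Share of elements (vertical axis, percent) that were higher (red) or lower (blue) at 500 nM in pMN, or higher in p3 (grey), at an unadjusted p under 0.05, among elements holding each set of letters on either strand (horizontal axis, E-box 1 is CAGATG, E-box 2 is CAGCTG) and among all tested. In pMN the GLI letters have 13.2% higher and 3.31% lower, and the other sets have between 3.02% and 4.44% higher.

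The dose difference was also taken day by day and set beside that of p3. At an adjusted p under 0.05, 0 elements were called on day 4, 1 on day 5 (0.00313%) and 0 on day 6 (limma), while 1061, 1512 and 1425 passed 0.05 before adjustment. The 12 elements had the sign of their overall difference on all days, in 27 of 27 values for the higher and 9 of 9 for the lower. They were chosen by that difference over these same days, so this agreement is no independent support. No element was called for a dose effect that differed between days (0 calls in limma, 728 before adjustment), which does not show that the effects were equal. The smallest p for such a difference were at Scrt2 -12130, Frmd4a +107882 and Slc44a5 +152174, and each had an adjusted p of 1.0. At the first, near a gene for a zinc finger repressor of neuronal cells, the differences were 0.18 on day 4, -0.42 on day 5 and -0.84 on day 6.

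In p3, sorted at the same concentrations in 14 samples, 0 of 31812 elements were called between 500 and 100 nM (2954 at an unadjusted p under 0.05). For a dose effect that differed between pMN and p3, 0 elements were called (533 at an unadjusted p under 0.05). In this joint fit with p3 the pMN comparison also called 0 of 31812 (1282 before adjustment). All 12 elements kept p under 0.05 before adjustment there, and the lowest adjusted p among them was 0.0598. At Nkx2-9 -8166 the dose difference was -0.06 ± 0.13 VST units in p3, and the difference between cell types was 0.61 ± 0.18 with an adjusted p of 1.0. At Tns3 -58752 it was 0.33 ± 0.12 in p3. The 16 elements chosen in p2 had a median of 0.11 VST units in p3, with 13 of 16 positive, and their mean was higher in 4 of 6 matched p3 pairs. The smallest p for a difference between pMN and p3 were at Rgmb -350656, 1810034E14Rik -43175 and Ptpdc1 +31560, each with an adjusted p of 1.0. For scale, p3 and pMN differed from each other in 5286 elements at more than 2-fold and an adjusted p under 0.01, 16.6%, and 5.73% were higher in p3.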

How the data were processed

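ATAC-seq reads of sorted HM1-derived progenitors were processed by the authors with nf-core/atacseq, aligned to mm10, and peaks were called with MACS and merged into consensus elements present in at least 2 replicates. Reads per element were counted with featureCounts. The authors deposited DESeq2 variance-stabilized values on a log2 scale, normalized by size factors, and a HOMER annotation with distances in bp. A total of 21911 annotated elements have no value. The transformation was inverted here to normalized counts and reads; 100% of values below 1000 reads were whole, with the largest distance from a whole number 3.6e-11. Since the deposited values are log2, count tests were replaced by limma 3.58.1 (R 4.3.3) on them, two-sided, with a trend of variance on the mean, day and replicate number as covariates, and a filter on a mean above 100 normalized counts. limma voom on the reads, with size factors recovered from the deposited values, was an alternative and called 62 elements. P values were adjusted over all elements tested in a fit. Fold changes used log2(normalized count + 1).

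Replicate numbers were those of the titles. For same-numbered pMN samples at 100 and 500 nM, deviations from the group means correlated at 0.616 to 0.845 in all 7 pairs, so the numbers pair the samples. Descriptions give other numbers for some samples, and these were an alternative. Depth is given in the report, and its error is counting error only. Elements were named where they passed an adjusted p of 0.05, then, for listed genes, the element nearest the TSS within 1000 bp and any at an adjusted p under 0.05, and the 3 with the smallest p for differences between days and between pMN and p3. The comparison, lists and letters were chosen with earlier results of these data known. Fits were tested on simulated data. Letters were searched in the GRCm38 sequence of whole elements with pysam 0.24.0, on both strands. Alternatives covered the replicate block, filter, scaling, GC content, trend, voom, samples in the fit and leaving out each sample.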

Additional observations from a re-analysis of the deposited data

Results flagged for a closer look

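In 4 of the 36 groups of samples tested over 18 elements, 1 sample lay far from the others, and each time it was replicate 3 of day 4. At Car4 +9441 it had 208 normalized counts at 100 nM, with the next sample at 131, and 275 at 500 nM, with the next at 183. At Cobl -64134 it had 916 at 100 nM, with the next at 443. At Scrt2 -12130 it had 358 at 500 nM, with the next at 289. Chance picks out about 1 in 20 such groups. The groups span 3 days, and the levels of these elements also moved with day.

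At Rgmb -350656 the dose difference in pMN was lower than that in p3 by 0.71 VST units (a difference of -0.71), with every pair of pMN moving down and every pair of p3 up. The test of the difference gave an adjusted p of 1.0 (limma). At 1810034E14Rik -43175 matched pairs moved down on day 4 and on day 5 and up on day 6. The dose difference on day 6 exceeded that on day 4 by 0.40 VST units, and that on day 5 by 0.19. The test across days gave an adjusted p of 1.0.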

How the results depend on the processing

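The 12 calls at an adjusted p under 0.05 rested on the replicate block. Without the replicate block 0 elements were called, with the replicate numbers of the descriptions 0, with replicate numbers 2 and 3 only 0, without the variance trend 0 and with all 67 samples in the fit 0 (938 at an unadjusted p under 0.05). The joint fit with p3 also gave 0. With a replicate block within each day the count was 450, 174 higher and 276 lower, with a correction for both GC content and level 23, 18 higher and 5 lower, and with voom 62, 21 higher and 41 lower. Leaving out 1 sample gave between 0 and 34 calls. It gave 0 without day 4 replicate 1 at 100 or at 500 nM, day 5 replicate 3 at 100 nM, day 5 replicate 2 at 500 nM or day 6 replicate 3 at 100 nM. It gave 1 without day 4 replicate 2 at 100 nM or day 5 replicate 3 at 500 nM, and 2 without day 5 replicate 2 at 100 nM. It gave 6 without day 4 or day 6 replicate 2 at 500 nM, 30 without day 4 replicate 3 at 500 nM and 34 without day 6 replicate 3 at 500 nM. The cause was not tested. Each of the 12 kept its sign in all 20 alternatives, which share most samples with the fit that chose them. The count past 2-fold at an adjusted p under 0.01 was 0 in every alternative run.

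On day 5 the count went from 1 to 0 without the replicate block, and to 0 in each fit that left out a sample. On day 6 it was 2 with voom and between 0 and 3 when a sample was left out. In p3 it was 1 without the filter, 4 with samples centred on their medians and 1 with voom. Without the filter 29377 elements differed between p3 and pMN, in place of 5286. With an adjusted p under 0.05 alone as the criterion for the elements higher in p3 than in p2, 8477 elements, their median dose difference in pMN turned to -0.0257 VST units from 0.0909; for those lower in p3 it was -0.04 in place of -0.11, and for those higher in p2 at 100 nM it was 0.10 over 1283 elements in place of 0.43. The range of depth overlapped between doses. The median distance from an estimate to either end of its 95% interval was 0.16 VST units, and the smallest difference called was 0.33.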
